A study of Mus musculus with 6 samples.

Results

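Expression of 10 genes of the fibroblast growth factor (FGF) family was examined in newborn mouse lenses that lacked the heat shock transcription factor Hsf4. The genes were Fgf1, Fgf2, Fgf4, Fgf5, Fgf7, Fgf9, Fgf10, Fgf12, Fgf13 and Fgf15, and every probe set annotated to exactly 1 of them was used, which gave 15 of the 22626 probe sets tested and 10 of 12393 genes. A probe set is a group of short oligonucleotides on the array that measures 1 transcript or a few related ones. The arrays were 3 of HSF4 null lenses and 3 of wild-type lenses, all from newborn ICR mice. No treatment or allele other than the Hsf4 genotype is given in the labels. The series text calls the arrays of a group biological replicates, but neither the number of lenses or animals behind an array nor the part of Hsf4 that was deleted is given in the sources used here. Values are log2 intensities after the RMA normalization of the authors, and a difference of 1 on this scale is a change of 2-fold.

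FGFs are signalling proteins that bind heparan sulfate and receptor tyrosine kinases at the cell surface. In the lens, FGF signalling promotes proliferation of the epithelium and drives epithelial cells to elongate into fiber cells, and much of the signal is thought to come from the retina and the vitreous. Hsf4 is active in lens cells, and earlier work has linked it to FGF genes there, which is the question this comparison addresses. Fgf12 and Fgf13 carry the family's name but are FGF homologous factors, proteins that stay inside the cell and bind voltage-gated sodium channels, so that the word ligand covers only the other 8 genes.

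The targeted gene followed the labels. Hsf4 had a log2 intensity of 4.26, 4.09 and 3.79 in Hsf4-null lenses, against 9.09, 9.39 and 9.56 in wild-type lenses (difference -5.30, SE 0.16, limma adjusted p = 9.54e-06), although whether its probe set lies in the deleted part is not given. Array medians of log2 intensity lay between 5.22 and 5.38, and arrays of the same group correlated at 0.991 to 0.994. Of 14 measured lens markers, 13 were above the median level of all probe sets, and 1, the beaded filament gene Bfsp1, fell by 1.65 (SE 0.10, adjusted p = 0.000131), where 2.11% of all 12393 genes fell and 0.775% rose. Precision is limited by the number of arrays. An exact permutation test of 1 gene has a smallest possible p of 0.1 in a design of this size.

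None of the FGF genes changed past the threshold in Hsf4-null lenses. At a limma adjusted p under 0.05, 0 of the 15 probe sets were called, where 602 of all 22626 probe sets, 2.66%, were (0.72% higher and 1.94% lower). The methods' t-test together with SAM called 0 of the 15 and 4.45% of all probe sets. The limma adjusted p-values of the FGF probe sets ran from 0.312 to 0.972. At an unadjusted p under 0.05 there was 1, a probe set of Fgf4, beside 15.4% of all probe sets. The 3 Hsf4-null and 3 wild-type arrays did not overlap for 4 of the 15, against 21.1% of all. Of these 4, those of Fgf1 and Fgf7 were higher in Hsf4-null lenses and both others, of Fgf4, were lower. The median difference was 0.04 over the 15 probe sets and 0.0025 over all probe sets.

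The arrays gave these genes unequal chances of showing a change. For 12 of the 15 probe sets the mean level lay below the median of all probe sets, which was 5.30, and for 7 of the 10 genes this held for every probe set. The 3 above it belonged to Fgf12, Fgf13 and Fgf15. For the 12 dim ones, array values lay between 3.05 and 5.38 on a scale that ran from 2.85 to 14.37, and no detection calls were used here. Their means ranged from percentile 0.314 of all probe sets (the dimmer Fgf13 probe set) to percentile 46.8 (Fgf9). Among all probe sets below the median, 0.919% were called and the groups did not overlap for 17.2%. Of the 12 dim FGF probe sets, 0 were called and the groups did not overlap for 4. The 95% confidence interval of the difference lay inside a change of 1.5-fold in either direction for 11 of the 15 probe sets. This excludes Fgf9, Fgf12, the brighter Fgf13 probe set and Fgf15, and for a transcript near the lower end such an interval describes the array signal, which can understate a change in RNA.

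**Figure D1:**
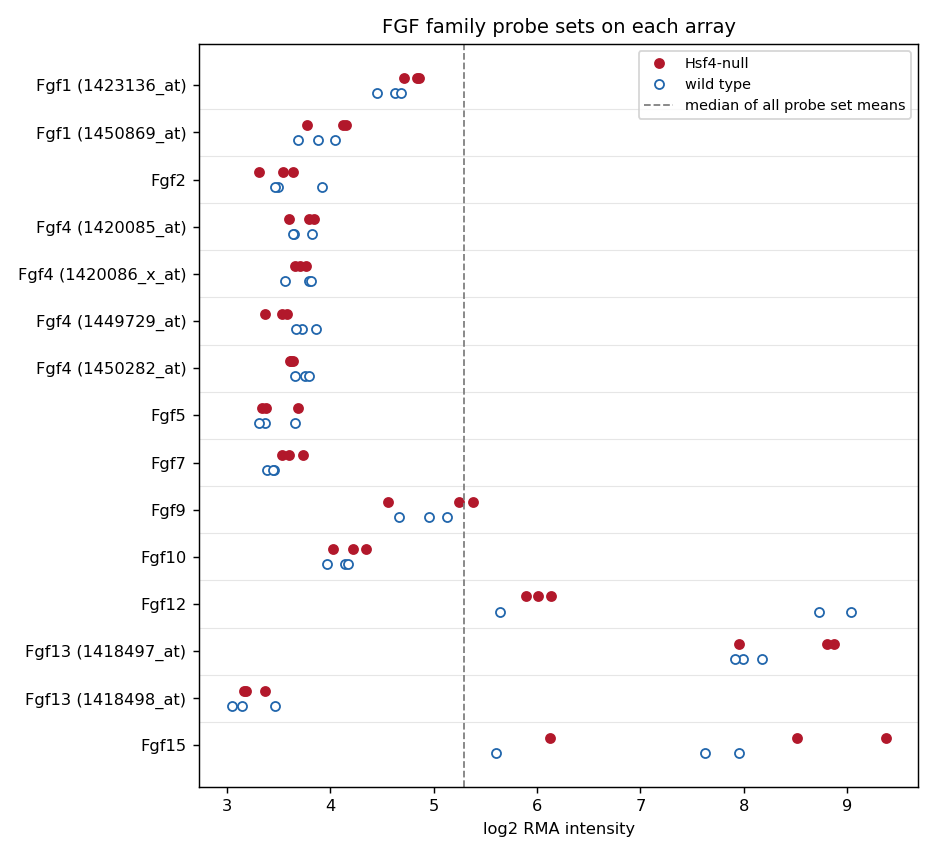
Log2 RMA intensity (x axis) of the 15 FGF family probe sets (rows), with 1 point per array, Hsf4-null arrays drawn above wild-type arrays in each row. The dashed line is the median of all probe set means, 5.30. Fgf12 spans 5.64 to 9.03 in wild-type lenses but 5.89 to 6.14 in Hsf4-null lenses, and 12 of the probe sets lie at or below 5.38 on every array.

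Fgf12 had the largest difference of the family, and it rested on wild-type arrays that stood far apart. Its log2 intensity was 6.14, 6.01 and 5.89 in Hsf4-null lenses, against 8.72, 5.64 and 9.03 in wild-type lenses. The Hsf4-null arrays lay within 0.25 of each other, whereas the wild-type arrays covered 3.39, and the array of wild-type replicate 2 lay below every Hsf4-null array. The means were 6.01 ± 0.12 in Hsf4-null and 7.80 ± 1.87 in wild-type lenses (SD, n = 3 each), a difference of -1.79 (SE 0.78, 95% interval -3.60 to 0.03, limma adjusted p = 0.334). Only 31 probe sets, 0.137% of all, had a spread within groups as large as that of Fgf12, 1.33. Without wild-type replicate 2 the difference was -2.86 (SE 0.15, adjusted p = 0.000494) and passed. Without wild-type replicate 3 it was -1.17 (adjusted p = 0.602).

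The genes whose values ran most like those of Fgf12 were sought among 6888 genes above the median level, each centred on its mean over the 6 arrays, by the root mean square difference over the arrays. The closest were Gpbp1l1 (0.84), Timeless (0.85), a gene of the replication and circadian machinery, and Scn11a (0.87), which encodes a voltage-gated sodium channel. Fgf12 itself deviated by 1.40 from its own mean on this measure, so the likeness was loose. Timeless was at 7.53, 7.42 and 7.46 in Hsf4-null lenses, against 9.19, 8.56 and 9.37 in wild-type lenses (adjusted p = 0.00594). Gpbp1l1 was at 7.84, 8.07 and 8.19 in Hsf4-null lenses, against 9.41, 8.25 and 9.33 in wild-type lenses (adjusted p = 0.167). In both, and in Scn11a, wild-type replicate 2 was the lowest wild-type array, but in none of the 3 did it fall to or below the Hsf4-null arrays. Among the wild-type arrays, replicate 2 was the lowest for 5 of 14 lens markers, 1 of 12 retina markers and 6 of 12 vascular markers.

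**Figure D2:**
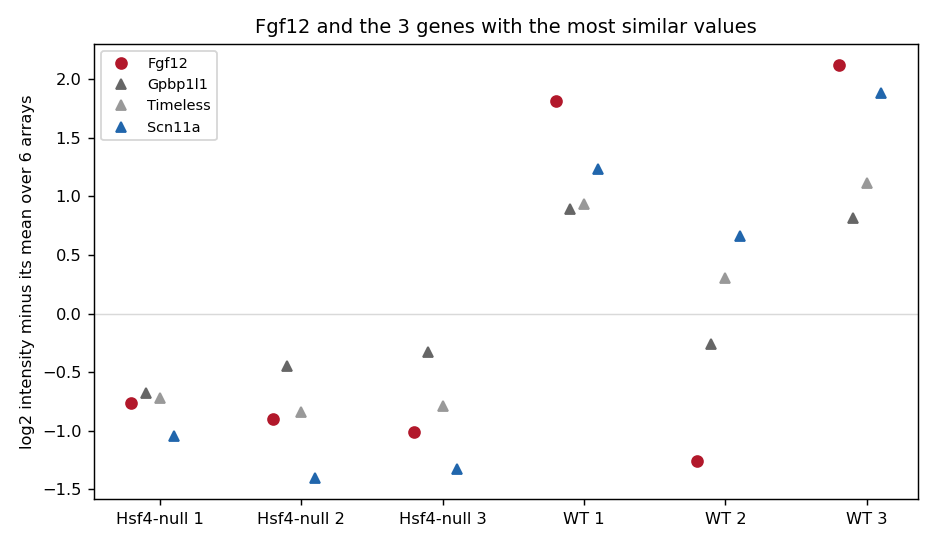
Log2 intensity of Fgf12, Gpbp1l1, Timeless and Scn11a, each minus its mean over the 6 arrays (y axis), on every array (x axis), Hsf4-null at the left and wild type at the right. Only Fgf12 has wild-type replicate 2 below all Hsf4-null arrays.

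The RefSeq promoters of build GRCm38.p6, 250 bases before to 50 bases after a start, were searched for the paired units that heat shock factors are known to bind, GAANNTTC or TTCNNGAA, on both strands, since each form is its own reverse complement. Entries existed for 8 of the 10 genes, those other than Fgf1 and Fgf15, with 14 promoters. Fgf12 has 4 starts, and only 1 of them held a match. That start and 1 of those without a match are shown, because Fgf12 was the member with the largest difference. Which start its probe set reads is not given. The match, in capitals, lay 168 bases before the start of the one given first, and the one given second held none:
Fgf12 at chr16:28564446-28564745, minus strand: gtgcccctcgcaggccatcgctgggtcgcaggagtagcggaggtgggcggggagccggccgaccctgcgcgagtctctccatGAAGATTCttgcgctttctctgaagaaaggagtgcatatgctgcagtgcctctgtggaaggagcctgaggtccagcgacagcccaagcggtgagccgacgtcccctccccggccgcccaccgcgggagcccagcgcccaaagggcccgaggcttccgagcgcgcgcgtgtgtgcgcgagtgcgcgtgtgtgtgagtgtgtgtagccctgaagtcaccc
Fgf12 at chr16:28753194-28753493, minus strand: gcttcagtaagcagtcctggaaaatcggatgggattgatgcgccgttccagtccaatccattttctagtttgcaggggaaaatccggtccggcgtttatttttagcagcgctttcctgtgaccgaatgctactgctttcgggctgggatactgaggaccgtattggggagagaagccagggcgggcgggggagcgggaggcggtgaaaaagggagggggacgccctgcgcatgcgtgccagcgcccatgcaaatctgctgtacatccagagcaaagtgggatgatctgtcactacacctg

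The other matches were in Fgf2, 38 bases after the start, and in Fgf5, 8 bases before it, shown here with the bases around each as a reference for the dim members below. Altogether 3 of the 14 promoters held a match, against 4946 of 32851 promoters of the same length, 15.1%. A match is a string of letters and not a measured binding site.
Fgf2, chromosome 3, plus strand: gctctctcggcTTCAGGAAgagt
Fgf5, chromosome 5, plus strand: gcgggtgagggGAAGCTTCgcaggcgtgca

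Fgf13, the other FGF homologous factor, had the opposite sign. Its brighter probe set was at 8.81, 7.95 and 8.87 in Hsf4-null lenses, against 7.99, 8.17 and 7.92 in wild-type lenses. Hsf4-null replicates 1 and 3 lay above every wild-type array, and replicate 2 lay among them. The difference was 0.52 (SE 0.24, 95% interval -0.03 to 1.06, adjusted p = 0.355). Without Hsf4-null replicate 2 it was 0.81 (adjusted p = 0.0294) and passed, and without Hsf4-null replicate 3 it was 0.35. The second Fgf13 probe set lay at 3.19, 3.17 and 3.37 in Hsf4-null lenses, against 3.47, 3.05 and 3.15 in wild-type lenses. These overlapped, its mean was above only 0.314% of all probe sets, and the difference was 0.02 (adjusted p = 0.965).

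A list of sodium channel genes and of Mapk8ip2, a scaffold protein that FGF homologous factors also bind, had 9 of 14 genes measured. Of the 9, 2 fell and 0 rose, against 2.11% and 0.775% of all genes, with a median difference of -0.07 beside 0.0069 over all genes. Both that fell were among the 8 measured channel genes, whose own median was -0.053. Scn11a fell, with log2 intensities of 5.71, 5.35 and 5.43 in Hsf4-null lenses, against 7.99, 7.41 and 8.64 in wild-type lenses (difference -2.52, SE 0.28, adjusted p = 0.00325). Scn1a, a channel of neurons, fell as well, at 5.45, 5.52 and 5.06 in Hsf4-null lenses, against 6.56, 6.13 and 6.52 in wild-type lenses (difference -1.06, SE 0.17, adjusted p = 0.0170). That call was lost when any of Hsf4-null replicate 3, wild-type replicate 1 or wild-type replicate 3 was left out, with adjusted p of 0.0565, 0.0539 and 0.0678. The other, dimmer probe set of Scn1a differed by 0.14 (adjusted p = 0.672), so its probe sets disagreed. Of the 9 genes, 7 lay below the median level.

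Fgf15, known from the embryonic retina and brain and as a hormone of the gut, varied more between arrays of the same genotype than between genotypes. Its log2 intensity was 8.52, 6.13 and 9.37 in Hsf4-null lenses, against 7.62, 7.95 and 5.60 in wild-type lenses. Hsf4-null replicate 2 and wild-type replicate 3 were the low arrays, and the groups overlapped. The means were 8.005 ± 1.68 in Hsf4-null and 7.06 ± 1.27 in wild-type lenses (SD, n = 3 each), a difference of 0.94 (SE 0.88, 95% interval -1.10 to 2.98, adjusted p = 0.665). It became 1.88 when Hsf4-null replicate 2 was left out, and 0.22 when the left-out array was wild-type replicate 3. Only 20 probe sets, 0.0884% of all, had as large a spread within groups.

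Most retina markers were low on the same arrays. Of 16 listed, 12 were measured and 0 were called, with a median difference of 0.32. Their mean log2 intensity was 7.17, 5.53 and 7.13 in Hsf4-null lenses, against 6.34, 7.003 and 5.91 in wild-type lenses. Among the Hsf4-null arrays, 11 of the 12 were lowest in replicate 2, and among the wild-type arrays 8 of the 12 were lowest in replicate 3. Otx2, a homeobox gene of photoreceptor precursors and pigment epithelium, was at 9.42, 5.90 and 9.20 in Hsf4-null lenses, against 7.59, 8.90 and 6.34 in wild-type lenses. Rcvrn, the photoreceptor gene recoverin, stayed near the lower end at 3.68 to 4.001. The summed linear intensity of the markers ran from 7004 to 9167 in Hsf4-null and from 4444 to 8545 in wild-type lenses, but most of it came from Glul, the glutamine synthetase gene. Without Glul the sums were 1737, 388 and 1743 in Hsf4-null lenses, against 791, 1452 and 628 in wild-type lenses. In whole lenses, fewer cells of a type and less RNA per cell cannot be told apart.

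The same arrays were low for markers of macrophages and pigment cells, though not of every other tissue. Of 14 macrophage markers, 11 were lowest in Hsf4-null replicate 2 among the Hsf4-null arrays and 13 in wild-type replicate 3 among the wild-type arrays, with sums of 1054 to 1947 in Hsf4-null and 623 to 1537 in wild-type lenses. For pigment cell markers this was 7 and 5 of 9, with sums of 3634 to 4946 in Hsf4-null and 3094 to 4205 in wild-type lenses. More than any other gene, Mitf made up the pigment sums, and without it they were 2002, 1004 and 2042 in Hsf4-null lenses, against 1217, 893 and 400.002 in wild-type lenses. Neither list had a called gene. At an unadjusted p under 0.05, 4 of the 14 macrophage and 3 of the 9 pigment cell markers were higher and 0 lower. Of all genes, 7.34% were higher and 8.38% lower at that threshold. Hsf4-null replicate 2 was the lowest Hsf4-null array for 4 of 12 vascular, 4 of 13 mesenchyme and 3 of 10 cornea and skin markers. Wild-type replicate 3 was the lowest wild-type array for 6, 7 and 3 of these. With the mean of the retina markers as a covariate, a fit chosen after seeing the data, the difference of Fgf15 was 0.59 (SE 0.36, adjusted p = 0.480), beside 0.94 without it. This fit describes the values, and the part of other tissue in the values of Fgf15 was not tested.

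Genes whose values ran most like Fgf15 were named after its values were seen. The closest of the 6888 were Atoh7 (root mean square difference 0.34), Isl1 (0.43) and Myt1 (0.46), where Fgf15 itself deviated by 1.31 from its mean. Atoh7 is required for retinal ganglion cells, and Isl1 is on the retina list. Atoh7 was at 7.26, 5.22 and 8.01 in Hsf4-null lenses, against 6.26, 6.48 and 5.12 in wild-type lenses (adjusted p = 0.596), with the same low arrays as Fgf15.

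**Figure D3:**
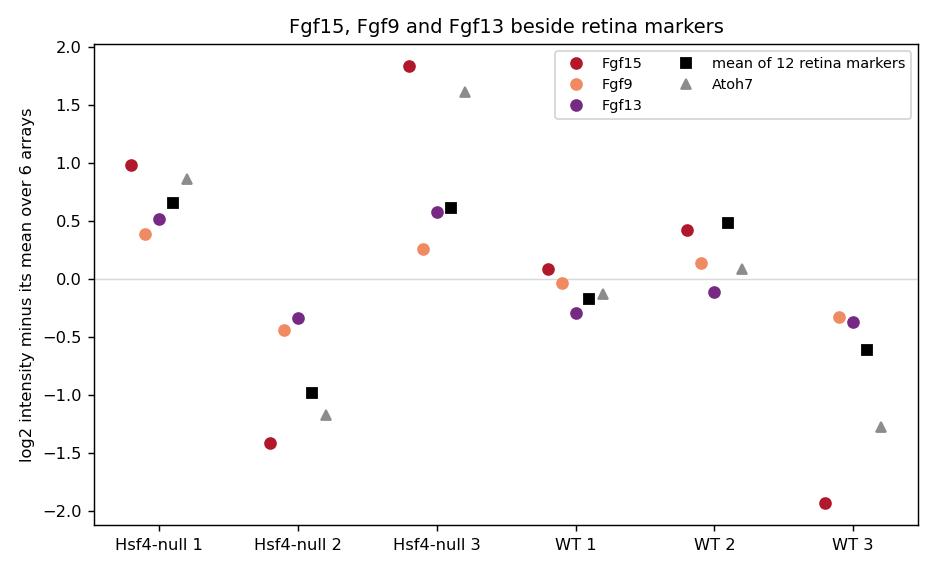
Log2 intensity of Fgf15, Fgf9, Fgf13 (brighter probe set), Atoh7 and the mean of 12 retina markers, each minus its mean over the 6 arrays (y axis). Arrays are on the x axis, Hsf4-null at the left and wild type at the right. Atoh7 (triangles) was chosen for its likeness to Fgf15. Hsf4-null replicate 2 is low for all of these, and wild-type replicate 3 is the lowest wild-type array for all of them.

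Fgf9, an FGF that acts at the border of retina and pigment epithelium and in other organs, was dim, with 5.38, 4.56 and 5.25 in Hsf4-null lenses, against 4.96, 5.13 and 4.66 in wild-type lenses. Its low arrays were the same as those of Fgf15. The difference was 0.15 (SE 0.23, adjusted p = 0.810), the groups overlapped, and with the retina covariate it was 0.06 (SE 0.10). For Fgf13 the covariate gave 0.42 (SE 0.12, adjusted p = 0.129). These fits describe the values, and whether retinal RNA has a part in either was not tested.

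Fgf1 and Fgf2, which act without a signal peptide of the usual kind and are known to be present around the lens, were below the median level. The mean of the brighter Fgf1 probe set lay at percentile 43.8 of all probe sets and that of Fgf2 at percentile 10.3. The brighter Fgf1 probe set was at 4.84, 4.86 and 4.72 in Hsf4-null lenses, against 4.63, 4.69 and 4.46 in wild-type lenses, with no overlap. Its difference was 0.22 (SE 0.10, adjusted p = 0.383), and its 95% interval ran from 0.982-fold to 1.37-fold. The other Fgf1 probe set, at 3.78, 4.15 and 4.13 in Hsf4-null and 3.89, 4.05 and 3.69 in wild-type lenses, overlapped and differed by 0.14 (adjusted p = 0.687). Fgf2 was at 3.31, 3.55 and 3.64 in Hsf4-null lenses, against 3.49, 3.46 and 3.92 in wild-type lenses. These overlapped too, and the difference was -0.13 (SE 0.15, adjusted p = 0.745).

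Fgf7 and Fgf10 are mesenchymal factors that signal to epithelia through the same splice form of Fgfr2. Fgf7 was at 3.53, 3.60 and 3.73 in Hsf4-null lenses, against 3.46, 3.39 and 3.45 in wild-type lenses, without overlap. The difference was 0.19 (SE 0.10, adjusted p = 0.411), an interval of 0.976-fold to 1.33-fold. Fgf10 was at 4.03, 4.34 and 4.22 in Hsf4-null lenses, against 3.97, 4.14 and 4.17 in wild-type lenses, and overlapped (difference 0.10, SE 0.12, adjusted p = 0.738). Of 13 measured mesenchyme markers, 2 rose, Col1a1 by 1.89 (adjusted p = 0.0201) and Twist1 by 0.998 (adjusted p = 0.00341), and 0 fell, against 0.775% and 2.11% of all genes. The sums of this list ran from 2405 to 2969 in Hsf4-null and from 2073 to 2518 in wild-type lenses, and overlapped. Pdgfra had the highest mean of the list. Without it the sums did not overlap, at 1405, 1415 and 1642 in Hsf4-null lenses, against 1153, 949 and 823 in wild-type lenses. The part of mesenchyme in the values of Fgf7 and Fgf10 was not tested.

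Fgf4 and Fgf5, an embryonic factor and a regulator of the hair cycle, completed the group. Fgf4 was measured by 4 probe sets, all between 3.37 and 3.87. The one with an unadjusted p of 0.0452 was at 3.54, 3.58 and 3.37 in Hsf4-null lenses, against 3.72, 3.87 and 3.67 in wild-type lenses (difference -0.25, SE 0.11, adjusted p = 0.312). A second also did not overlap, at 3.61, 3.62 and 3.64 in Hsf4-null and 3.66, 3.75 and 3.80 in wild-type lenses (difference -0.11, adjusted p = 0.620). Both others overlapped and differed by 0.04 and -0.01, so the 4 probe sets of the gene did not share a direction. Fgf5 was at 3.69, 3.34 and 3.38 in Hsf4-null lenses, against 3.37, 3.66 and 3.32 in wild-type lenses, a difference of 0.02 (SE 0.14, adjusted p = 0.959). Fgf4 and Fgf15 lie next to each other after Fgf3 on chromosome 7 in the order of protein-coding genes.

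**Figure D4:**
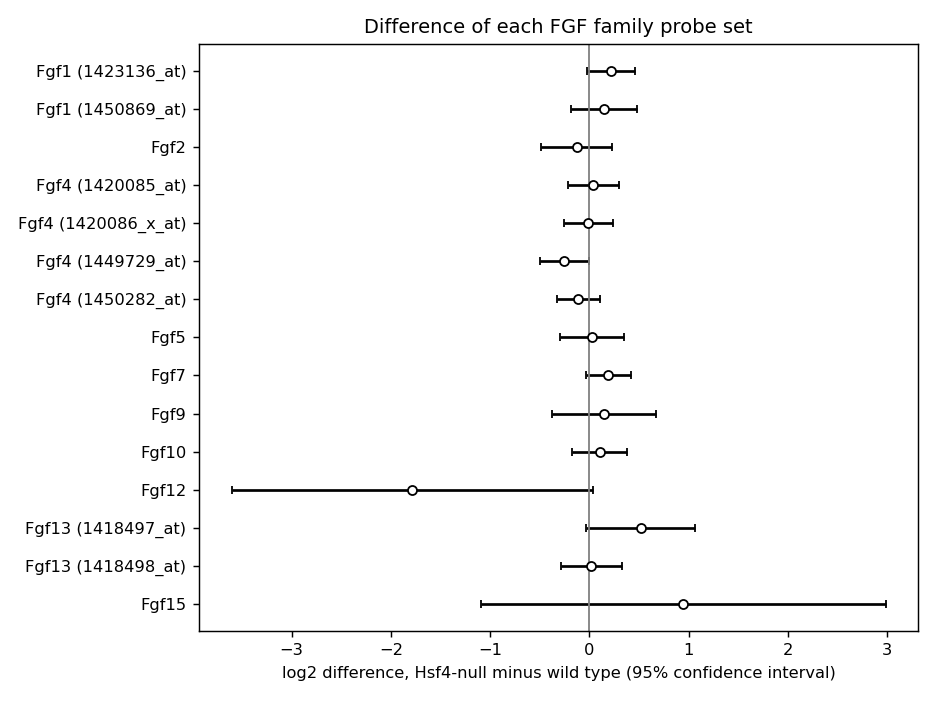
Log2 difference of each FGF family probe set, Hsf4-null minus wild type (x axis), with its 95% confidence interval from limma. Only the Fgf4 probe set at -0.25 has an interval that leaves out 0, and it did not pass after adjustment; the intervals of Fgf12 and Fgf15 are the widest.

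The rest of the family and its pathway gave few calls. Of the 12 other FGF genes, all measured, 0 passed, with a median difference of 0.06 and a smallest adjusted p of 0.257. At an unadjusted p under 0.05 there were 2, Fgf11 (-0.28) and Fgf22 (-0.31), both lower and both dim. By the same unadjusted threshold, 8.38% of all genes were lower and 7.34% higher. The largest difference toward higher values in this list was 0.25, for Fgf3. After adjustment, 96 of all 12393 genes were called higher and 261 lower.

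Among 7 receptors and co-receptors 1 rose and 0 fell, against 0.775% and 2.11% of all genes, with a median of 0.06. Fgfrl1, a receptor that binds FGFs but lacks the kinase domain, was at 10.58, 10.71 and 10.63 in Hsf4-null lenses, against 9.94, 10.01 and 10.23 in wild-type lenses. The groups did not overlap, and the difference was 0.58 (SE 0.11, adjusted p = 0.0391). This call was lost in 5 of the 6 fits that left out an array, at adjusted p of 0.0858 to 0.144, and was kept at 0.0385 without wild-type replicate 3. Fgfr2, a receptor with a kinase domain, averaged 10.73 ± 0.09 in Hsf4-null and 10.76 ± 0.21 in wild-type lenses (SD, n = 3 each). Its difference was -0.03, with an interval of -0.33 to 0.27. Fgfr3 differed by 0.06, with an interval of -0.20 to 0.32. Fgfr1 had the lowest difference of the list, -0.07.

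The signal relay from adaptor to kinase, with 14 of 20 genes measured, had 0 calls in either direction and a median of 0.03. Its extremes were the adaptors Grb2 (0.22, adjusted p = 0.399) and Crk (-0.22, adjusted p = 0.360). A second, dimmer probe set of Grb2 differed by -0.45 (adjusted p = 0.258) with no overlap, so its probe sets disagreed in sign. Of 9 measured feedback and target genes, which FGF signalling is known to induce, 0 passed, and the median was 0.05. Spred2, an inhibitor of the pathway, had the highest difference, 0.51 (SE 0.19, adjusted p = 0.259), and Spry4 the lowest, -0.07. The dimmer probe set of Spred2 overlapped and differed by only 0.07 (adjusted p = 0.866). That of Spry4 differed by 0.16 (adjusted p = 0.604), with the other sign. Dusp6, a phosphatase that acts on the kinase ERK, was at 10.41, 10.38 and 10.50 in Hsf4-null lenses, against 10.31, 10.08 and 9.80 in wild-type lenses (difference 0.37, SE 0.14, adjusted p = 0.255). Dusp6 and Spred2, both higher, were the 2 of these 9 with an unadjusted p under 0.05. Of all genes, 7.34% were higher and 8.38% lower at that threshold. Heparan sulfate and FGF-binding genes, 23 of 26 measured, had 0 calls, a median of 0.04 and 4 higher at an unadjusted p under 0.05, beside 7.34% of all genes, the sulfotransferases Hs6st1 (0.33) and Hs3st1 (0.44) and the proteoglycans Sdc4 (0.29) and Agrn. Their extremes were Agrn (0.48, adjusted p = 0.307) and the sulfotransferase Ndst3 (-0.28).

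**Figure D5:**
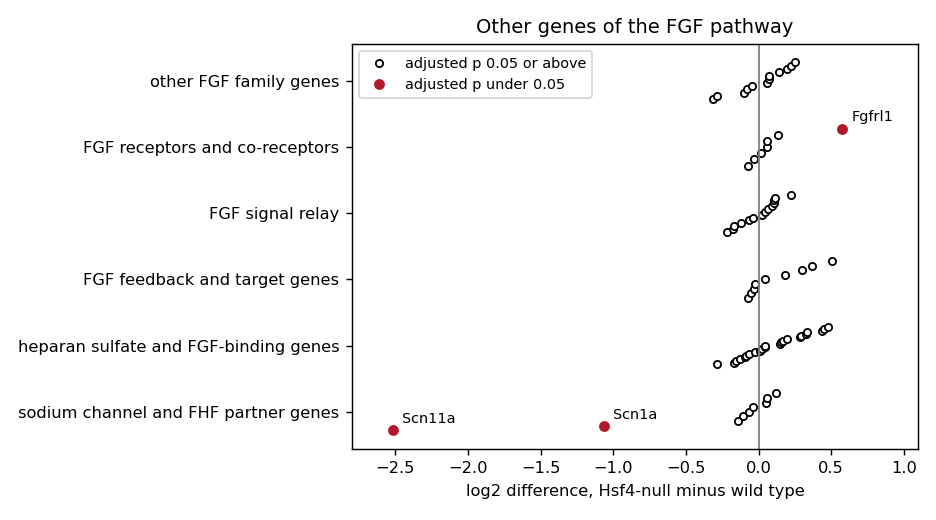
Log2 difference, Hsf4-null minus wild type (x axis), of every measured gene in the 6 pathway lists (rows), with 1 point per gene. Red points have an adjusted p under 0.05, which are Fgfrl1 to the right of 0 and Scn1a and Scn11a to the left of 0.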

How the data were processed

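Total RNA from newborn lenses, 50 ng per array, was amplified and labelled with the NuGEN Ovation system and hybridized to Affymetrix mouse arrays, 3 of Hsf4-null and 3 of wild-type lenses. The authors applied RMA, of unstated version, and deposited a linear intensity for every probe set on every array. From the deposited intensity, log2 was taken here. After removal of 64 array controls from 22690 probe sets, a linear model with the genotype as its only term was fitted to the remaining 22626 (lmFit and eBayes of limma 3.58.1, R 4.3.3). P-values were adjusted by Benjamini-Hochberg over all of these, with a threshold of 0.05, and dim probe sets were kept. The p-values measure the spread between these arrays.

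The platform annotation gave 1 symbol for 20380 probe sets, several for 691 and none for 1555. Of those with 1 symbol, 20351 were matched through the gene identifier to RefSeq of GRCm38.p6 and took its symbol. A gene outside the 10 members was represented by its brightest probe set (12393 genes). The members and the 15 gene lists, 6 of the pathway and 9 of cell types, were chosen with earlier results of these data known. Named genes are all members, Hsf4, the called genes of each pathway list (at most 4 in each direction), its highest and lowest where none was called, any called marker (Bfsp1, Col1a1, Twist1), and the 3 genes most like Fgf12, the member above the median level with the largest difference. Other genes, Dusp6, Hs6st1, Hs3st1, Sdc4, Mapk8ip2, Glul, Mitf, Pdgfra, Fgfr1, Fgfr2, Fgfr3, Fgf11, Otx2, Rcvrn and the genes most like Fgf15, were chosen after their values were seen. The marker lists not described elsewhere were those of blood vessels (0 of 12 called, median difference 0.33), cornea and skin (0 of 10, -0.06), blood (0 of 4, 0.23) and skeletal muscle (0 of 10, -0.07). At an unadjusted p under 0.05, 5 of the 12 vessel and 2 of the 4 blood markers were higher and 0 lower, beside 7.34% and 8.38% of all genes. The summed intensity of the vessel markers was 1954 to 2060 in Hsf4-null and 1433 to 1847 in wild-type lenses, without overlap. The part of such tissue in the FGF values was not tested.

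Alternatives were a block on the replicate number, 1 probe set per gene, removal of dim probe sets, a pseudocount of 16, renewed quantile normalization or centring of the arrays on the median, robust variance with a trend, each array left out in turn, the retina markers as a covariate, and the methods' t-test (alone, adjusted, and with SAM at a 5% false discovery rate). SAM was written here with all 20 assignments of the labels. The procedure was tested on simulated data with independent normal noise for each probe set. That simulation held no tissue pattern shared between genes, so it cannot show how the procedure behaves where such a pattern is present.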

Additional observations from a re-analysis of the deposited data

How the results depend on the processing

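The count of called FGF probe sets stayed at 0 under all settings except those named here. The methods' t-test without adjustment called 2 of the 15 (1 higher, Fgf7, and 1 lower, Fgf4), where it called 2912 of all probe sets, 12.9%, and none with SAM, where it called 1007, 4.45%. Leaving out an array gave 0 to 1 call, which was Fgf13 without Hsf4-null replicate 2 and Fgf12 without wild-type replicate 2. Over all probe sets the 602 calls became 85 with the t-test after adjustment, 366 with 1 probe set per gene, and 321 to 562 when an array was left out (321 for Hsf4-null replicate 3, 335 and 358 for wild-type replicates 2 and 3). With the replicate number as a block there were 382 calls and 0 of the FGF probe sets. Deviations from the group means correlated at 0.25, -0.21 and -0.08 for arrays of the same number. For arrays of unlike number the correlations ran from -0.38 to 0.41. With 3 arrays per group, these values cannot decide whether arrays of the same number share a litter or a batch, which the labels do not give. The calls of Fgfrl1 and Scn1a were lost with the block (adjusted p = 0.0908 and 0.059), that of Fgfrl1 also with median centring (0.0866), and those of Fgfrl1 and Scn11a with the adjusted t-test (0.16 and 0.124), where Scn1a did not pass either.

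Of 238 differences of FGF probe sets under 17 settings, 221 kept direction and call, 4 passed where they had not and 13 turned direction, none of these larger than 0.09 in size. With the retina covariate Fgf5 was at -0.011. With an array left out, Fgf5 ran from -0.087 to 0.13, Fgf9 from -0.013 to 0.40, Fgf2 from -0.21 to 0.020, the Fgf4 probe sets near 0 from -0.010 to 0.11 and from -0.093 to 0.034, and the dim Fgf13 probe set from -0.068 to 0.14. Without turning, Fgf10 ran from 0.027 to 0.19 and the dimmer Fgf1 probe set from 0.051 to 0.26. The cause was not tested.

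The number of arrays and the low signal of 12 of the 15 probe sets limit what these arrays can detect. The limma p-values rest on the spread of each probe set itself, drawn toward a spread shared across probe sets.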
